A study of Mus musculus with 2 samples.

Results

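The genes for the Id proteins Id1, Id2 and Id3 and for the E proteins Tcf3, Tcf4 and Tcf12 were followed in single thymic cells of mice. They were 6 of the 32285 genes in the count table and were chosen by name, as the best known members of a pair of opposing families. E proteins are helix-loop-helix transcription factors that pair with each other and bind E-box motifs in DNA. Tcf3 encodes E2A, Tcf12 encodes HEB and Tcf4 encodes E2-2. Id proteins carry the helix-loop-helix but lack the basic region that touches DNA, so an E protein paired with an Id protein cannot bind. In the thymus, E2A and HEB are known to drive T cell receptor (TCR) gene rearrangement and to hold cells at the CD4+ CD8+ double-positive (DP) stage. Id3 is known to be induced by TCR signals, and Id2 is known for its role in innate-like and effector lymphocytes and in dendritic cells.

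Thymocytes had been sorted as stage 0 invariant natural killer T (iNKT) cells, which were TCRβ+, CD1d tetramer+, CD24+ and NK1.1-, or as stage 3 iNKT cells, which were TCRβ+, CD1d tetramer+, NK1.1+, CD24- and CD44+. They came from Ctrl mice or from T-KO mice, which lack Kidins220 in T cells through a floxed allele and pLckCre, a Cre driven by the Lck promoter, all on a C57BL/6 background. Each sort was made from 4 pooled thymi of a genotype and was done 2 times in parallel. The 8 populations were marked with hashtag antibodies, pooled and read as 1 droplet library, so single mice cannot be followed. The T-KO mice were Kidins220 fl/fl with LckCre, and the study gives its Ctrl mice as Kidins220 +/fl or Kidins220 +/+ LckCre. Ages are given as a range over the study and not for the mice pooled here.

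The count table names its hashtags by row, and rows 11 to 18 held 99.9% of the hashtag counts. The labels name hashtags 1 to 8 and do not tie them to these rows, and neither do the methods. The rows were therefore kept as 8 separate populations without a label, no row was assigned to Ctrl or T-KO, and no test between groups was made. A cell was used when it had at least 1000 genes, at most 5% mitochondrial transcripts and at least 10 hashtag counts with at least 80% of them on 1 row. This left 10007 of 16179 barcodes, from 577 to 2162 cells a row, with 2283162 to 14601545 transcript counts a row. Levels are given as counts of unique transcripts (UMIs) per 1000000 UMIs of the row or class (CPM). Intervals in parentheses are exact 95% Poisson intervals for CPM and exact 95% binomial intervals for shares, and they cover counting error only.

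The odd rows 11, 13, 15 and 17 differed in cell makeup from the even rows 12, 14, 16 and 18. Cells were split by the first limit they met, at least 2 UMIs of Cd79a, 5 of Cst3, 1 of Rag1 or 2 of Ikzf2, and the others were called the rest class. In the odd rows this gave 810 cells of the Cd79a class, 972 of the Cst3 class, 418 of the Rag1 class, 1106 of the Ikzf2 class and 943 of the rest class. In the even rows 96.1% of 5758 cells fell in the rest class. All 5 B cell markers reached 20 CPM in the Cd79a class, all 8 dendritic and myeloid markers in the Cst3 class and all 8 DP markers in the Rag1 class. The sets were not exclusive, as 4 dendritic and myeloid markers also reached 20 CPM in the Cd79a class. In the rest class of the odd rows 7 DP markers did, and the DP markers summed to 1122 to 1328 CPM against 1618 to 2258 CPM in the Rag1 class. Gamma-delta T cell markers summed to 324 to 570 CPM in that rest class, the highest of the classes. All 5 iNKT1 markers reached 20 CPM in the rest class of the even rows, where they summed to 3065 to 3413 CPM against 374 to 531 CPM in the Ikzf2 class. Trav11, the segment of the invariant iNKT TCR, made up 29.7% of TRAV counts in the rest class of the even rows (28.3 to 31.1%) and 0.163% in the Ikzf2 class (0.0656 to 0.336%). The label of the odd rows as iNKT cells was thus not borne out by this segment, and the classes are called by their limit genes. Of 7 markers of post-selection iNKT precursors, 5 reached 20 CPM in the Ikzf2 class, and the 7 summed to 1473 to 1669 CPM. In the rest class of the odd rows 3 did, with 983 to 1733 CPM. The paper itself reports finding and removing B cells, myeloid cells, DP and double-negative thymocytes. It proposes that poor CD1d tetramer staining in this sort might explain such thymocytes.

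Id2 was higher in the even rows. Id2 is encoded on chromosome 12 from 25093799 to 25097140 on the minus strand of GRCm38. Over all cells it stood at 297 CPM in row 11 (286 to 308), 146 in row 13 (140 to 152), 158 in row 15 (149 to 166) and 125 in row 17 (116 to 135). The even rows lay close together, at 955 CPM in row 12 (931 to 980), 993 in row 14 (970 to 1016), 1002 in row 16 (961 to 1044) and 1036 in row 18 (1008 to 1065). Every even row was thus above every odd row, and the mean of the rows was 997 against 181 CPM, a log2 ratio of 2.40 with 10 CPM added to each side.

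Id3, on chromosome 4 from 136143497 to 136145755 on the plus strand, ran the other way. It stood at 160 CPM in row 11 (152 to 168), 238 in row 13 (230 to 246), 261 in row 15 (251 to 272) and 281 in row 17 (267 to 295). In the even rows it was 60.3 CPM in row 12 (54.3 to 66.8), 60.1 in row 14 (54.6 to 66.0), 108 in row 16 (95.1 to 122) and 88.9 in row 18 (80.7 to 97.7). The groups did not overlap, and the log2 ratio of even to odd rows was -1.45. Rows 16 and 18 were above rows 12 and 14 by more than the counting intervals. What sets these rows apart cannot be read from the labels.

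The E protein genes were all lower in the even rows. Tcf4 differed most, with 53.1 to 110 CPM in the odd rows and 6.94 to 8.62 CPM in the even rows, a log2 ratio of -2.31. With 1 CPM added to each level in place of 10, the log2 ratio of Tcf4 was -3.18 and that of Id2 was 2.45. Tcf3 stood at 133 to 184 CPM in the odd rows and 82.5 to 90.3 CPM in the even rows, a log2 ratio of -0.84. Tcf12 stood at 67.0 to 119 CPM in the odd rows and 49.5 to 62.7 CPM in the even rows, a log2 ratio of -0.69. Id1 had only 51 UMIs in all and reached at most 1.64 CPM over all cells of a row, in row 11, so it was not compared. Of its UMIs, 36 were in the Cst3 class of the odd rows, at 3.17 to 3.48 CPM. The row ranges of all 5 members compared were apart, at a background where 28.0% of 7387 genes were higher and 36.4% lower in the even rows by the same rule. With a 2-fold difference asked as well, Id2 was higher and Id3 and Tcf4 were lower. By that rule 7.24% of the genes were higher and 10.3% lower, so a large share of all genes separated these rows.

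**Figure D1:**
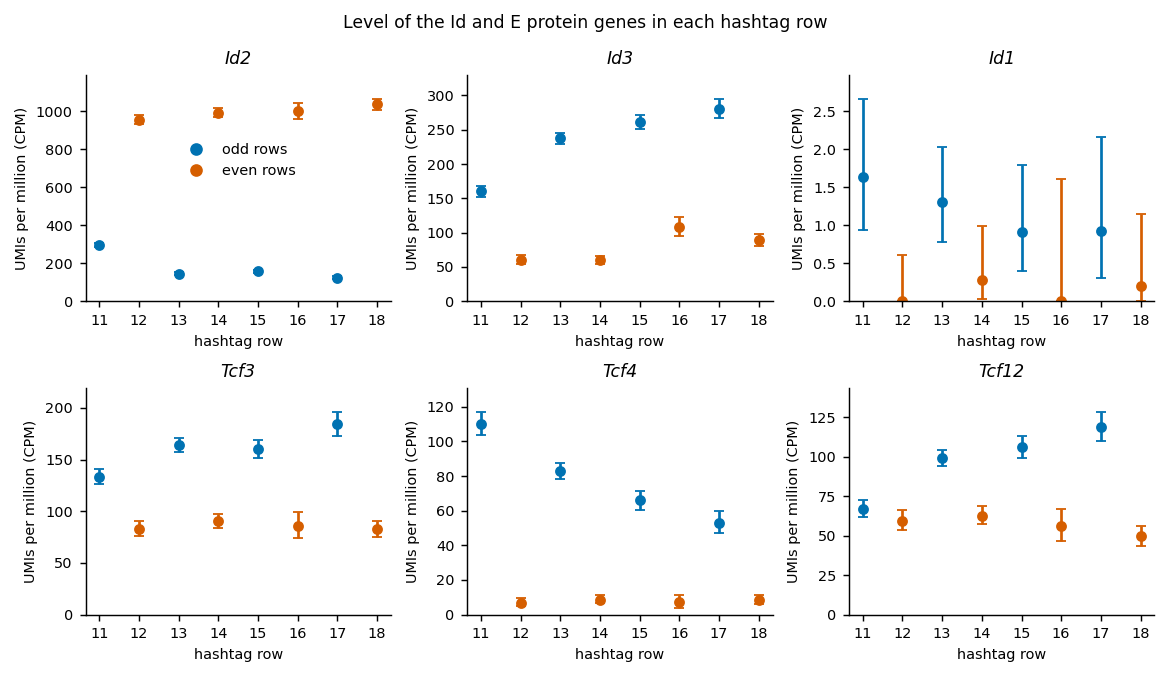
Level of each member in the 8 hashtag rows, in CPM (linear axes from 0), with exact 95% Poisson intervals as bars. Blue points are odd rows and orange points are even rows. Id2 lies at 955 to 1036 CPM in the even rows and 125 to 297 CPM in the odd rows, and the 3 E protein genes and Id3 lie lower in the even rows.

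Because the odd rows were mixtures, each member was next followed by class within the rows. Id2 in the odd rows was carried by the Cst3 class, which held dendritic and myeloid markers. There it stood at 571 CPM in row 11 (549 to 595), 475 in row 13 (451 to 499), 436 in row 15 (411 to 463) and 361 in row 17 (327 to 397). The Cst3 class made up 33.2% of the cells of row 11 and 16.5 to 24.2% of the other odd rows, and row 11 was also the odd row with the highest Id2 over all cells. In the Cd79a class Id2 was 117 to 140 CPM. In the Rag1, Ikzf2 and rest classes of the odd rows Id2 was lower than in the Cd79a class in every row. These are called T lineage classes here because Cd3e, a subunit of the TCR complex, stood at 680, 834 and 749 CPM. In the rest class Id2 was 37.3 to 97.1 CPM. The log2 ratio of the Cd79a to the rest class was 0.86, short of 2-fold.

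In the Ikzf2 class Id2 stood at 44.9 CPM in row 11 (33.6 to 58.8), 38.8 in row 13 (32.7 to 45.9), 46.8 in row 15 (37.9 to 57.1) and 46.0 in row 17 (36.5 to 57.2). These 4 values did not differ beyond their intervals. In the Rag1 class it was 38.4 CPM in row 11 (24.9 to 56.7) and 13.3, 16.4 and 19.0 CPM in rows 13, 15 and 17. Row 11 was also the row where Rag1 class cells were shallow, with a median of 3684.5 UMIs a cell against 14409 to 15274 in the other odd rows. Free RNA from the Id2-rich cells can add such counts. If the few Klrb1c counts of these cells were free RNA with the Id2 to Klrb1c ratio of the even rows, 2.43, they would bring 11.2 CPM of Id2 to the Rag1 class in row 11 and 9.23 to 13.9 CPM in rows 13, 15 and 17, and 12.4 to 24.8 CPM to the Ikzf2 class. The part of free RNA in these levels was not tested. The log2 ratio of the Ikzf2 to the Rag1 class was 0.77, and it was -0.28 when cells were thinned to 2000 UMIs before the limits were asked.

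The rest class of the even rows held Id2 at 966 CPM in row 12 (941 to 991), 996 in row 14 (973 to 1020), 1008 in row 16 (965 to 1052) and 1044 in row 18 (1015 to 1075). Against the Ikzf2 class of the odd rows the log2 ratio was 4.23. In this comparison 7.03% of 7387 genes were higher and 10.1% lower by 2-fold with the row ranges apart, and 4 of the 5 members compared were among them. With the ranges apart at any fold, 23.0% were higher and 45.9% lower, and all 5 were. Id2 was higher, and Id3, Tcf4 and Tcf3 were lower at log2 ratios of -2.67, -1.38 and -1.21. Tcf12 had a log2 ratio of -0.85. The 98 even-row cells in the Ikzf2 class had Id2 at 865 to 914 CPM in the 3 rows with at least 20 of them, near the level of their rows and far from that of the Ikzf2 class of the odd rows.

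Id3 was highest in the Ikzf2 class. It stood there at 556 CPM in row 11 (514 to 600), 593 in row 13 (568 to 618), 596 in row 15 (563 to 630) and 477 in row 17 (446 to 511). Row 17 was below the other 3 rows, and its interval lay apart from all of theirs. The Rag1 class was flat, at 198 CPM in row 11 (165 to 235), 187 in row 13 (169 to 207), 197 in row 15 (177 to 219) and 186 in row 17 (161 to 214). The Ikzf2 class was above the Rag1 class in 4 of 4 rows, with a log2 ratio of 1.48. The classes also differed in mitotic cells, those with at least 3 UMIs over Top2a, Mki67, Ube2c and Birc5. Mitotic cells were 337 of 418 in the Rag1 class and 357 of 1106 in the Ikzf2 class. Among mitotic cells Id3 was 435 CPM in the Ikzf2 class and 183 in the Rag1 class. Among cells with no such UMI it was 739 and 379 CPM. The part of mitotic cells in the ratio was not tested. By the class rule, a 2-fold difference with the same sign in every odd row, 5.51% of 7041 genes were higher in the Ikzf2 class than in the Rag1 class and 0.739% lower, and Id3 was the only member called.

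The rest class of the odd rows lay between them, with Id3 at 262 CPM in row 11, 210 in row 13, 302 in row 15 and 283 in row 17. The Ikzf2 class was above it in every row at a log2 ratio of 1.04, where 1.42% of 7046 genes were higher and 0.312% lower by the class rule. This value lay at the limit of the rule and fell to 0.92 without row 13. In cells just inside the Ikzf2 limit, with exactly 2 Ikzf2 UMIs, Id3 was 338 CPM, and in cells just outside it, with 1 UMI, it was 264 CPM. The Cd79a class held 70.0 to 119 CPM of Id3, and the rest class of the even rows 59.2 to 108 CPM.

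The Cst3 class showed 43.9 CPM of Id3 in row 11, 48.5 in row 13, 76.0 in row 15 and 124 in row 17. In this class 281 of 972 cells had a UMI of Cd3e, which dendritic cells lack. These cells had 154 CPM of Id3 against 13.2 CPM in the other 691 (10.7 to 16.1), and 301 against 588 CPM of Id2. They held 575 of the 671 Id3 UMIs of the class, and doublets between cells of 1 row were not removed.

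**Figure D2:**
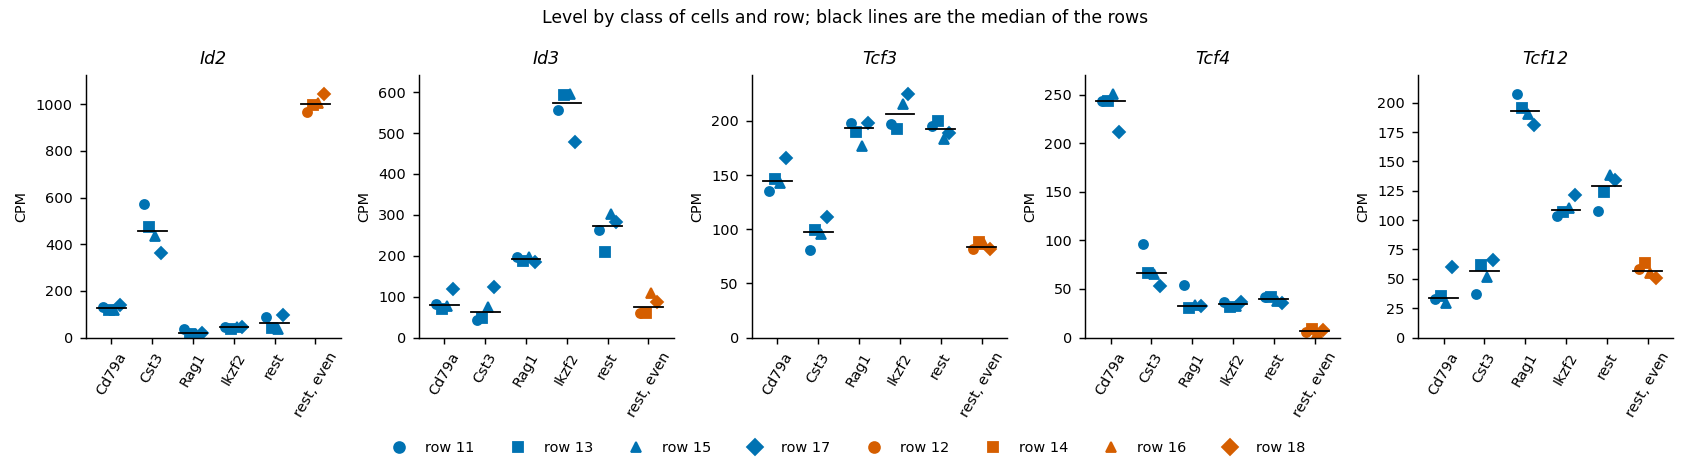
Level of 5 members in CPM (linear axes from 0) in the 5 classes of the odd rows (blue) and in the rest class of the even rows (orange). Each point is 1 row, its shape gives the row and black lines are medians of the 4 rows. Id3 peaks in the Ikzf2 class, Tcf12 in the Rag1 class, Tcf4 in the Cd79a class and Id2 in the rest class of the even rows.

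Of the E protein genes, Tcf3 varied least among T lineage classes. It stood at 192 to 225 CPM in the Ikzf2 class, 177 to 198 in the Rag1 class and 183 to 200 in the rest class of the odd rows, and these ranges overlapped. The Cd79a class had 135 to 165 CPM, the Cst3 class 80.4 to 111 CPM and the rest class of the even rows 81.5 to 88.2 CPM. The even-row cells were therefore below all 3 T lineage classes of the odd rows in every row, by somewhat more than 2-fold against the Ikzf2 class.

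Tcf12 was highest in the Rag1 class, at 207 CPM in row 11 (174 to 245), 196 in row 13 (177 to 216), 190 in row 15 (170 to 212) and 181 in row 17 (156 to 209). The Ikzf2 class had 103 to 121 CPM and the rest class of the odd rows 108 to 139 CPM, below the Rag1 class in 4 of 4 rows each. The log2 ratio of the Ikzf2 to the Rag1 class was -0.76, which did not reach 2-fold. With every cell thinned to 2000 UMIs before the limits were asked it was -1.43. Among mitotic cells Tcf12 was 125 CPM in the Ikzf2 class and 191 in the Rag1 class. Among cells with no mitotic UMI it was 95.2 (82.1 to 110) and 255 CPM (174 to 362). The part of mitotic cells in the ratio was not tested. Levels were 50.8 to 63.1 CPM in the rest class of the even rows, 37.5 to 66.1 CPM in the Cst3 class and 29.4 to 59.7 CPM in the Cd79a class.

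Among the classes, Tcf4 was highest in the Cd79a class, which held the B cell markers. It stood at 244 CPM in row 11 (223 to 266), 243 in row 13 (225 to 262), 251 in row 15 (219 to 285) and 211 in row 17 (170 to 259) in the Cd79a class, and the 4 rows did not differ beyond their intervals. Against the rest class of the odd rows the log2 ratio was 2.32. In this comparison 8.63% of 7362 genes were higher and 15.8% lower by the class rule. Id3 and Tcf12 were among the lower ones, at log2 ratios of -1.49 and -1.47. Tcf4 was 53.0 to 96.6 CPM in the Cst3 class, 30.4 to 53.8 CPM in the 3 T lineage classes of the odd rows and 5.22 to 8.69 CPM in the rest class of the even rows. The Cst3 class was mixed, and its 52 cells with a UMI of Siglech had 454 CPM, more than the Cd79a class.

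Beside the rest class, 8.37% of 7285 genes were higher and 3.9% lower in the Cst3 class, and Id2 was higher at a log2 ratio of 2.64 while Id3 and Tcf12 were lower at -1.72 and -1.08. With lower class limits none of these 3 was past the rule, at 1.44 for Id2, -0.85 for Id3 and -0.52 for Tcf12, and Tcf12 was also short of it with trimmed mean scaling, at -0.91. The 94 cells just inside the Cst3 limit had 34.2 CPM of Id2, against 20.1 CPM in the 62 cells just outside it. In the Rag1 class 0.0887% of 6768 genes were higher and 2.94% lower than in the rest class, and Id2 was lower at -1.25. That last call was lost when cells were thinned to 2000 UMIs, where the log2 ratio was -0.02. Tcf3 was past 2-fold in none of the comparisons made between classes of the odd rows with the main settings. In the Cst3 class its log2 ratio to the rest class was -0.92. It stayed short of the rule in 15 of 22 alternatives and was past it in the others, down to -1.61.

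Over 24 units of class and row with at least 50 cells, those with the most Id2, the Cst3 class and the rest class of the even rows, had only 43.9 to 124 CPM of Id3. The UMIs of Id3 per UMI of Id2 were 10.4 to 15.3 in the Ikzf2 class, 5.16 to 14.1 in the Rag1 class and 2.92 to 8.11 in the rest class of the odd rows. They were 0.586 to 0.852 in the Cd79a class, 0.0768 to 0.345 in the Cst3 class and 0.0595 to 0.107 in the rest class of the even rows. The capture of either transcript may differ, so only the order of these ratios across units is of use, not their distance from 1.

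**Figure D3:**
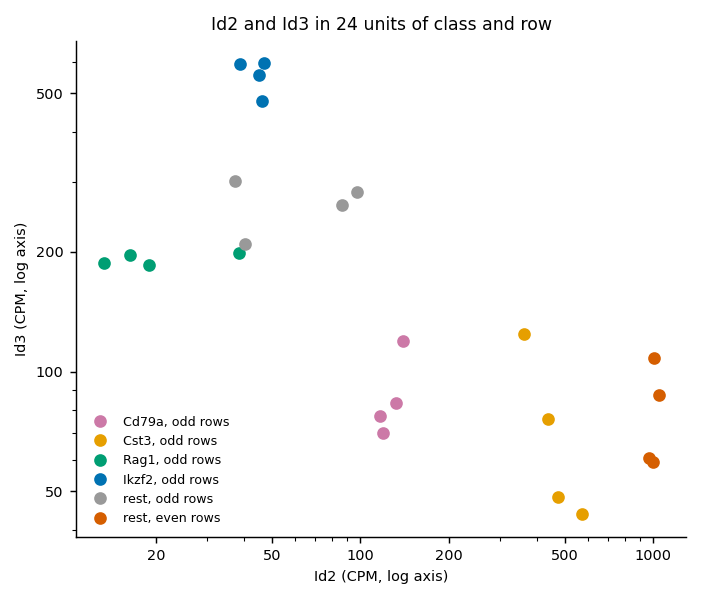
Id3 against Id2 in 24 units of class and row, both in CPM on log axes, with 1 point a unit and 1 color a class. The Ikzf2 class sits at the upper left, with Id3 at 477 to 596 CPM, and the rest class of the even rows at the lower right, with Id2 at 966 to 1044 CPM.

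The same units were used to name the genes most like each member, by Pearson's r of log2 CPM with 10 added, over 8511 genes. These correlations describe units that share a library and differ in cell makeup, so they carry no p-value. Id2 was followed most closely by Pea15a (r = 0.977), Myl12b, Arsb, Calhm2 and S100a6. Id3 was followed by Tia1 (r = 0.930), Syde2, Mphosph10, Anapc4 and Nrip1. Tcf3 was followed by Itgb3bp (r = 0.944), Top1, Tle3, Susd1 and Usp11. Tcf4 was followed by Syk (r = 0.968), a kinase of the B cell receptor, and by Prr5, Snn, Vav2 and Pkig. Tcf12 was followed by the histone gene Hist1h1a (r = 0.970), Lonp1, Desi1, Tcf7 (r = 0.969), which encodes the T cell factor TCF-1, and Mtf2.

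Whether Id2 and Id3 occur in the same cells was read after each cell was thinned to 2000 UMIs, since a share of cells with a UMI depends on depth. In the rest class of the even rows 82.1% of 4993 cells had Id2 (81.0 to 83.2%), against 89.5% before thinning, and 11.4% had Id3 (10.5 to 12.3%). Both were seen in 9.21% (8.42 to 10.0%), and the product of the 2 shares is 9.33%. In the Ikzf2 class 53.5% of 1053 cells had Id3 (50.4 to 56.5%), against 75.1% before thinning, and 9.50% had Id2 (7.79 to 11.4%). Both were seen in 5.51% (4.21 to 7.06%), with a product of 5.08%. So cells with both were about as common as the separate shares give in these classes, within counting error.

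The lowest share of Id2 was 4.63% of 389 cells in the Rag1 class (2.77 to 7.21%), and of Id3 it was 6.60% of 970 cells in the Cst3 class (5.12 to 8.35%). Before thinning their median depths were 13561.5 and 10487 UMIs a cell, against 5517.5 in the Ikzf2 class and 3374 in the rest class of the even rows. The Id3 share of the even rows was above that of the Cst3 class, and the Id2 share of the Ikzf2 class was above that of the Rag1 class by intervals that did not overlap. Id3 was seen in 30.8% of the Rag1 class (26.3 to 35.7%). Thinning left out 540 cells of the rest class of the even rows, 53 of the Ikzf2 class, 29 of the Rag1 class and 2 of the Cst3 class. In the Cst3 class both were seen in 1.44% (0.791 to 2.41%), below the product of 3.18%.

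**Figure D4:**
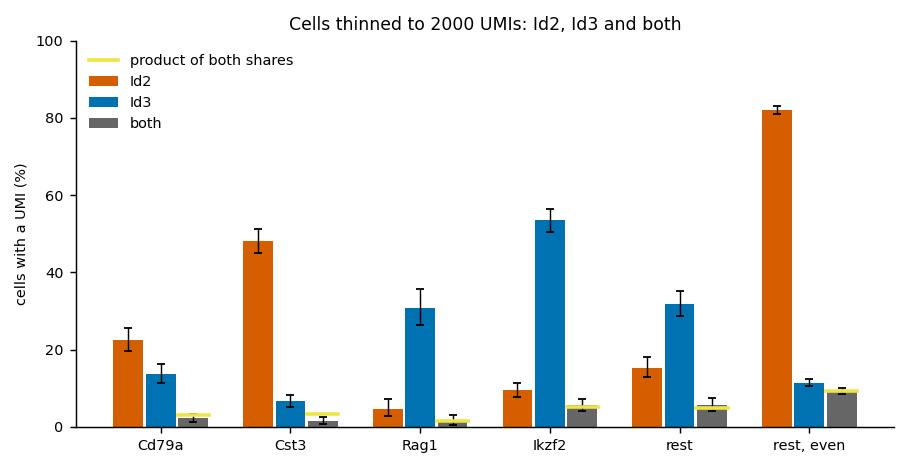
Share of cells (%, linear axis from 0) with a UMI of Id2 (orange), of Id3 (blue) and of both (gray) after thinning to 2000 UMIs, by class, with exact 95% binomial intervals. Yellow lines mark the product of the shares of Id2 and Id3. Id2 reaches 82.1% in the rest class of the even rows and Id3 53.5% in the Ikzf2 class.

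Within the Ikzf2 class, Id3 varied with genes of TCR signaling and of the cell cycle. Cells with an Egr2 UMI, a split made after values were seen, had 946 CPM of Id3 in row 11, 903 in row 13, 978 in row 15 and 632 in row 17. The cells without one had 475, 532, 527 and 455 CPM. The 170 cells with Egr2, a factor induced by TCR signals, were thus higher in 4 of 4 rows, at 881 (831 to 933) against 507 CPM (491 to 524) over the rows, and their median depths were 6467.5 and 5291 UMIs. Nr4a1, another TCR-induced gene, was 856 against 218 CPM in the same cells. Tcf12 was lower in the cells with Egr2 in 4 of 4 rows, at 80.1 against 116 CPM, and Tcf4 likewise at 22.7 against 35.2 CPM. The cells without Egr2 also held more Trdc, the constant segment of the TCRδ chain, at 122 against 35.5 CPM, and more Cd8b1, at 85.9 against 13.6 CPM. The part of these cells in the differences was not tested.

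Tnfrsf9, which encodes the costimulatory receptor 4-1BB, was used for a further split of the class. The 296 cells with at least 2 UMIs had 665 CPM of Id3 (632 to 700) against 483 CPM (464 to 502) in the 657 cells with none, higher in 4 of 4 rows. Tcf12 was lower in them, at 72.9 (62.3 to 84.8) against 129 CPM (120 to 139), and Tcf4 was lower at 21.8 against 39.4 CPM, both in 4 of 4 rows. Tcf3 was 202 against 210 CPM. Egr2 and Nr4a1 were again higher on the Tnfrsf9 side, at 66.4 against 20.4 and 488 against 229 CPM. Cd8b1 was lower there, at 20.1 against 106 CPM, and Trdc was 64.2 against 139 CPM and lower in 3 of 4 rows. Their part in the member values was not tested.

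Mitotic cells showed less of both Id genes. The 357 cells with at least 3 UMIs over Top2a, Mki67, Ube2c and Birc5 had 382 CPM of Id3 in row 11, 483 in row 13, 430 in row 15 and 384 in row 17. The 418 cells with none had 734, 761, 819 and 585 CPM. Id2 was 26.8 (22.4 to 31.9) against 62.1 CPM (51.6 to 74.2), lower in every row as well. Tcf12 was higher in the mitotic cells in 4 of 4 rows, at 125 against 95.2 CPM, while Tcf3 was 202 against 224 CPM. The mitotic cells had a median of 13202 UMIs against 4244, and 156 against 35.1 CPM of Trdc and 112 against 30.0 CPM of Cd8b1. Whether depth or these other cells had a part in the difference was not tested.

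Id2 was higher in a small set of the Ikzf2 class that was picked by Cd7, a surface receptor of lymphocytes. In the 126 cells with at least 2 Cd7 UMIs Id2 stood at 132 CPM in row 11, 155 in row 13, 176 in row 15 and 183 in row 17. In the 814 cells with none it was 30.8, 28.1, 38.8 and 30.3 CPM, so the ranges were far apart. Over the rows the levels were 161 (132 to 193) and 31.5 CPM (27.3 to 36.1), a log2 ratio of 2.04. Id3 stood at 692 against 553 CPM and was higher in 3 of 4 rows. Klrb1c was 14.4 against 5.50 CPM, which at the ratio of the even rows would bring 34.9 CPM and 13.4 CPM of Id2. Cd8b1 was 7.18 against 83.5 CPM and Trdc 61.7 against 116 CPM, both lower in 4 of 4 rows, and their part in the Id2 values was not tested.

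Other splits were made after values were seen. In the Rag1 class, the 42 cells with no mitotic UMI had 379 CPM of Id3 (277 to 505) and 140 CPM of Id2 (81.6 to 224), against 183 (171 to 195) and 13.7 CPM (10.7 to 17.2) in the 337 mitotic cells. Only row 11 had 20 cells on both sides, with 286 against 197 CPM of Id3. Those 42 cells also had 1211 CPM of Cd8b1 against 309, and a median depth of 2355 UMIs against 16323.

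In the rest class of the odd rows, the 128 cells with a UMI of Ccr7, a chemokine receptor of maturing thymocytes, had 198 CPM of Id2 (166 to 235) against 42.9 CPM (38.0 to 48.4), higher in 4 of 4 rows. Their Id3 was 362 against 240 CPM, higher in 3 of 4 rows. The 179 cells with at least 2 UMIs of Nkg7, a granule gene, had 80.3 CPM of Id3 (67.5 to 94.8) against 319 CPM (303 to 337) in those with none, lower in 4 of 4 rows. Their Tcf3 was 213 against 194 CPM. The cells with Nkg7 also had less Cd3e, at 360 against 853 CPM, and less Cd8b1, at 26.6 against 229 CPM, both in 4 of 4 rows. Their median depth was 9910 UMIs against 3288. The part of depth or of differing cell types in the Id3 values was not tested. The 218 cells with at least 2 Trdc UMIs had 226 CPM of Id3 against 314 CPM and 19.3 CPM of Id2 against 110 CPM, at median depths of 13904 and 2946 UMIs.

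In the Cst3 class, Id2 and Tcf4 marked opposite sides of the split by Xcr1 and Sirpa, receptors of type 1 and type 2 conventional dendritic cells. The 331 cells with Xcr1 and no Sirpa had 934 CPM of Id2 in row 11, 859 in row 13, 793 in row 15 and 800 in row 17. The 288 cells with Sirpa and no Xcr1 had 378, 356, 264 and 331 CPM. Tcf4 was 29.5, 32.2, 36.4 and 38.1 CPM on the Xcr1 side and 134, 137, 92.7 and 97.9 CPM on the Sirpa side. Both differences held in 4 of 4 rows with no overlap of the ranges. The 52 cells with a UMI of Siglech, a receptor of plasmacytoid dendritic cells, a type that depends on Tcf4, had 454 CPM of Tcf4 (398 to 515) against 57.1 CPM (52.7 to 61.9). Only row 11 had 20 such cells, with 540 against 68.7 CPM. Siglech was itself higher on the Sirpa than on the Xcr1 side, at 22.8 against 2.95 CPM. So were Bst2, at 586 against 294 CPM, and Ccr7, at 162 against 3.68 CPM, each in 4 of 4 rows. The Sirpa side was thus mixed, and the part of cells with Siglech or Ccr7 in its Tcf4 and Id2 levels was not tested. Over the 3 E protein genes, Tcf3 and Tcf12 were 58.7 against 64.2 and 28.7 against 31.4 CPM on the Xcr1 and Sirpa sides, with intervals that overlapped.

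**Figure D5:**
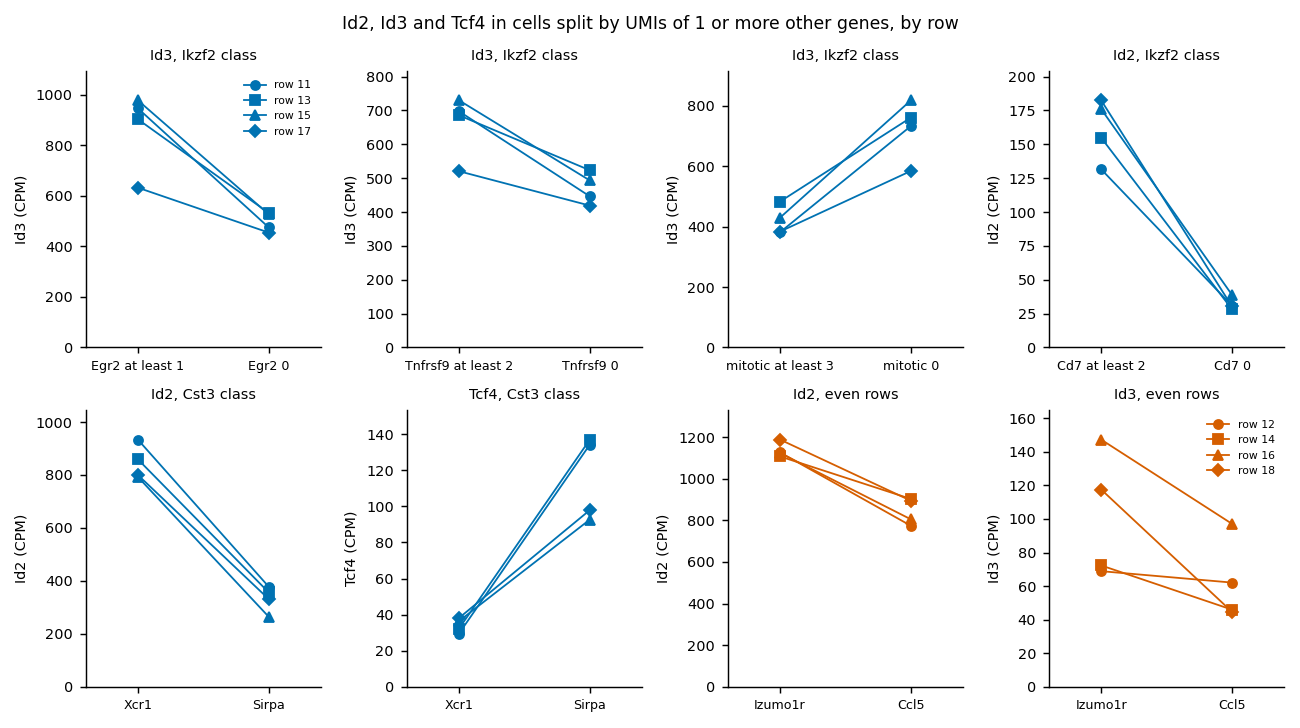
Levels of Id3, Id2 and Tcf4 (CPM, linear axes from 0) in cells of 1 class split by the UMIs of other genes, with 1 line a row. Blue lines are odd rows and orange lines are even rows. Within the Ikzf2 class Id3 is higher with Egr2 or Tnfrsf9 and lower in mitotic cells, and Id2 is higher with Cd7. In the Cst3 class Id2 is higher with Xcr1 and Tcf4 with Sirpa, and in the even rows Id2 and Id3 are higher with Izumo1r than with Ccl5.

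In the even rows, cells were split by Izumo1r, which encodes folate receptor 4, and by the chemokine gene Ccl5. The 1168 cells with Izumo1r and no Ccl5 had 68.9 CPM of Id3 in row 12, 72.3 in row 14, 147 in row 16 and 118 in row 18. The 1024 cells with at least 3 Ccl5 UMIs and no Izumo1r had 62.1, 45.9, 97.1 and 44.6 CPM. The Izumo1r side was higher in 4 of 4 rows at a log2 ratio of 0.62 over the rows, though the ranges of the sides overlapped. By a 1.5-fold rule 1.24% of 6466 genes were higher and 1.25% lower on the Izumo1r side, and Id3 was the only member past it. The count was 0 without row 18 and with trimmed mean scaling.

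Id2 was also higher with Izumo1r, at 1127, 1107, 1124 and 1188 CPM in rows 12, 14, 16 and 18 against 774, 903, 805 and 894 CPM with Ccl5. The ranges were apart, but the log2 ratio was only 0.43. Tcf3 was higher in 4 of 4 rows as well, at 93.1 against 71.7 CPM. Tcf12 was 58.4 against 53.7 CPM and Tcf4 7.53 against 7.14 CPM, with intervals that overlapped. Zbtb16, which encodes the iNKT lineage factor PLZF and is a known E protein target, was 110 against 36.5 CPM on the same sides.

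Other splits of the even rows were made after values were seen. Between 1101 cells with a Zbtb16 UMI and 4432 without, Id2 was 1072 against 980 CPM and Id3 84.5 against 68.1 CPM, both higher in 4 of 4 rows. Between 198 mitotic cells and 3372 without mitotic UMIs, Id2 was 918 against 1017 CPM, lower in 4 of 4 rows, and Id3 was 104 (85.4 to 126) against 68.7 CPM (64.0 to 73.6), higher in 4 of 4 rows. Tcf3 was 114 (94.1 to 136) against 79.1 CPM (74.0 to 84.4), also higher in 4 of 4 rows. Id3 of mitotic cells thus lay above that of other cells in the even rows and below it in the Ikzf2 class. The mitotic cells of the even rows also had less Klrb1c, at 242 against 427 CPM, lower in 4 of 4 rows. Their median depth was 4043 UMIs against 3343. The part of such differences in the Id3 values was not tested. In 191 cells with at least 3 UMIs over a set of interferon-induced genes Id2 was 1023 against 993 CPM and Id3 57.3 (41.4 to 77.2) against 72.5 CPM (68.4 to 76.8).

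Genes around the 2 families were read from 3 lists. The first held 20 other helix-loop-helix genes and cofactors, of which 10 were compared between the rows. Bhlhe40 and Mxd4 were higher in the even rows, at 79.9 against 26.5 and 189 against 75.4 CPM. Cbfa2t3, Lyl1 and Runx1 were lower, at 6.42 against 94.7, 1.21 against 26.9 and 57.7 against 134 CPM. The median log2 ratio of the list was -0.49, beside -0.09 over all genes compared, of which 7.24% were higher and 10.3% lower. In the Ikzf2 class Lyl1 and Mxd4 were 2 of 9 that were higher than in the Rag1 class, and none was lower. Of all genes compared between these classes, 5.51% were higher and 0.739% lower.

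The second list held 20 genes known or proposed as E protein targets. Between the rows 15 were compared, and 7 were lower in the even rows. These were Sox4, Dntt, Themis, Ptcra, Tcf7, Rag1 and Lef1, with Sox4 at 14.2 against 308 CPM and Dntt, the terminal transferase of TCR rearrangement, at 32.7 against 348 CPM. Zbtb16 and Socs1 were higher, at 71.9 against 5.57 and 131 against 50.3 CPM. The median was -0.40, beside -0.09 over all genes compared, of which 7.24% were higher and 10.3% lower. Rag1 was left out of comparisons by class. Between the Ikzf2 and Rag1 classes 5 of 15 were lower, among them Ptcra, Rag2, Dntt and Notch1, and 5 were higher, namely Ikzf3, Foxo1, Cd27, Sox4 and Bcl6. Ptcra, which encodes the pre-TCRα chain, was 23.4 against 133 CPM, and Ikzf3, which encodes Aiolos, 223 against 69.7 CPM. The median was -0.63, beside 0.04 over all genes, of which 5.51% were higher and 0.739% lower. The Rag1 class was picked by a Rag1 UMI and cells of the Ikzf2 class had none. Genes that go with Rag1 can differ through this limit alone, so this comparison gives no separate reading of E protein targets.

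The third list held 22 genes of pathways that are known to induce Id genes. Over all genes compared between the Ikzf2 and Rag1 classes 5.51% were higher and 0.739% lower, with a median log2 ratio of 0.04. Of 11 list genes compared 7 were higher and none lower, with a median of 1.88. The TCR-induced genes among them were Nr4a1 at 313 against 13.9 CPM, Egr1 at 152 against 13.6 CPM, Nr4a3 at 50.9 against 3.50 CPM, Egr2 at 36.4 against 0.542 CPM and Dusp5 at 70.4 against 11.8 CPM. The cytokine receptor chains Il2rb and Il2rg were 203 against 7.95 and 386 against 175 CPM. Id3 differed between the same classes by a log2 ratio of 1.48. Genes that go with Rag1 or Ikzf2 can differ through the limits of these classes alone, here as in the second list. The Rag1 class also held a larger share of mitotic cells. In the Ikzf2 class mitotic cells had 161 CPM of Nr4a1, against 492 CPM in those with no mitotic UMI. Whether the pathways of the list had a part in the Id3 difference was not tested.

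Between the even and odd rows 13 genes of this list were compared, where 7.24% of all genes were higher and 10.3% lower. Tbx21, Il2rb, Il2rg, Cish and Smad7 were higher in the even rows, and Nr4a1 was lower. Tbx21, which encodes T-bet, was 192 against 4.14 CPM, and Il2rb, a chain of the IL-2 and IL-15 receptors, 873 against 70.0 CPM. Nr4a1 was 16.5 against 104 CPM. In the rest class of the even rows Nr4a1, Spry1, Nr4a3, Stat5b and Stat5a were lower than in the Ikzf2 class of the odd rows. Tbx21, Il2rb, Smad7, Cish, Il2rg and Ski were higher, which made 11 of 16 compared. Of all genes compared, 7.03% were higher and 10.1% lower. The median log2 ratio of the list was -0.204, beside -0.198 over all genes, so the list as a whole was not shifted.

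The lists were also counted in the Cd79a and Cst3 classes against the rest class, where 15.8% and 3.9% of all genes compared were lower and 8.63% and 8.37% higher. Of 14 E protein target genes compared, 10 were lower and 3 higher in the Cd79a class than in the rest class, the higher ones being Cxcr5, Ikzf3 and Foxo1, and 11 were lower and none higher in the Cst3 class. Of 12 helix-loop-helix genes and cofactors, Bhlhe41, Bhlhe40 and Lyl1 were higher in the Cd79a class and Runx1, Gfi1, Hes6 and Cbfa2t2 lower. In the Cst3 class Lmo1, Bhlhe40, Cbfa2t3 and Lmo2 were higher and Ldb1 lower.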

How the data were processed

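Transcripts were read from the 5′ end by the 10x Genomics single-cell workflow. The deposited values are raw UMI counts for genes and hashtags in called cells, which the authors obtained by aligning to mm10 in Cell Ranger 6.0.0. Cells were filtered, assigned to rows and split into classes as described above. Counts were summed by row and class and divided by the total of gene counts to give CPM. A gene was compared when it had at least 20 CPM on 1 side. Log2 ratios used means of rows with 10 CPM added. A gene was called at 2-fold (1.5-fold for the split by Izumo1r and Ccl5) with the same sign in every row with at least 20 cells on both sides, or, between rows, with ranges that did not overlap. No p-value was computed, since no label ties a row to a group and cells of 1 library are not replicates. Doublets between rows were removed by the 80% rule, doublets within a row were not, and 13.1% of odd-row cells met more than 1 class limit.

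The members and lists were chosen with earlier results of these data known. Genes named were the members, genes of the lists past the fold, the markers and the 5 genes most like each member, and 1 list gene is not reported here. The alternatives were other filters, row assignment, class limits and order, thinning, scaling, pseudocount, weights of rows and leaving out each row, and, added after values were seen, the Cst3 class without cells with a Cd3e UMI. The calculations, in Python 3.11.15 with numpy 2.4.6, scipy 1.17.1 and pandas 2.3.3, were tested on simulated data. Gene positions are from GENCODE for GRCm38.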

Additional observations from a re-analysis of the deposited data

Results flagged for a closer look

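Of 40 sets of 4 rows looked at, 1 had a row far from the others. Tcf4 in the Rag1 class of the odd rows was 53.8 CPM in row 11 against 30.4 to 33.3 CPM in the other odd rows, a gap of 0.877 of the whole range, more than Dixon's test allows for so few values. Chance alone gives such a gap in about 1 in 20 sets. The value rests on 35 UMIs, and its interval, 37.4 to 74.8 CPM, overlaps those of the other rows. The Rag1 class of row 11 was also the shallow one, with a median of 3684.5 UMIs a cell.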

How the results depend on the processing

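The count of members past 2-fold with ranges apart between the odd and even rows, 3, was 3 under every alternative, and Id2 kept a log2 ratio of 2.14 to 2.49, or 2.26 to 2.72 with 1 row left out. Id3 in the Ikzf2 against the Rag1 class (1.48) was 1.68 with an upper limit on the genes of a cell, 1.92 with higher class limits, 1.68 without cells matching several classes and 1.84 with cells thinned to 2000 UMIs, and 1.44 to 1.53 with 1 row left out. The class comparisons with the rest class gave 8 calls, where a member called in several comparisons counts once in each. The number of calls was 3 with lower limits and up to 10 under the other alternatives, and 7 to 8 with 1 row left out. For the Izumo1r and Ccl5 split the count of 1 was 0 with trimmed mean scaling and 0 to 1 with 1 row left out. Causes were not tested. No value that was called changed sign. The Id2 call between the Rag1 and rest classes and the Id3 call between the Ikzf2 and rest classes each held in 17 of 21 alternatives. No paired analysis was possible because the hashtag rows carry no replicate number. Rare transcripts such as Id1 were limited by depth.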
